A study of Homo sapiens with 24 samples.

Results

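The genes described here are 10 genes of cellular iron handling in A549, an established epithelial line from a human lung adenocarcinoma. They were taken by symbol from the deposited table of mRNA values, where 10 of 10 were found among 22026 genes. TFRC, TF, STEAP3 and SLC11A2 serve iron uptake, FTH1 and FTL storage, and SLC40A1 export. IREB2 and ACO1 serve the regulation of some of these genes, and HMOX1 the release of iron from heme. The cells were cultured in 1 of 2 media, control or CAF conditioned medium, and CAF is an abbreviation that the labels leave unexplained. For each medium there was 1 mRNA library at 3, 6, 12, 24, 48 and 72 h, 12 libraries in all. All libraries come from the same cell line, and neither the composition of the control medium nor the source of the CAF is given in the sources used here. Although the design text mentions 2 biological replicates, each medium and time has 1 column, so no single time has a replicate check. The 6 times therefore stand in for replicates of the medium effect, and p-values measure only how far these libraries spread, which may be technical.

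Cells take up iron mainly as transferrin, which binds the transferrin receptor and is carried into endosomes, where iron is released, reduced and moved to the cytosol. Iron that is not used is stored in ferritin, a shell of heavy and light subunits, or leaves through ferroportin. The iron regulatory proteins bind hairpins called iron-responsive elements: at the start of the ferritin and ferroportin mRNAs they block translation, and in the tail of the transferrin receptor mRNA they protect it from decay. In iron-replete cells the proteins let go, so that receptor mRNA is degraded while ferritin mRNA is translated. mRNA levels can therefore follow this control for the receptor, but tell little about it for ferritin.

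A pair of sequences is shown, one from before the start of TFRC and one with a hairpin of the type that iron regulatory proteins bind. The elements in the tail of the receptor mRNA are not among them. Both come from RefSeq (GRCh38.p14), which held start-site windows for 8 of the 10 members, 13 windows in all, and none for FTH1 and HMOX1. The first is the 250 bases before the annotated start of TFRC (chr3:196082091-196082340, minus strand), with ACGTG, the core letters that hypoxia-inducible factors bind, in capitals. The second is a stretch of 24 transcribed bases of FTL (chr19:48965335-48965358, plus strand), with the 6 bases of the hairpin loop in capitals.
TFRC upstream: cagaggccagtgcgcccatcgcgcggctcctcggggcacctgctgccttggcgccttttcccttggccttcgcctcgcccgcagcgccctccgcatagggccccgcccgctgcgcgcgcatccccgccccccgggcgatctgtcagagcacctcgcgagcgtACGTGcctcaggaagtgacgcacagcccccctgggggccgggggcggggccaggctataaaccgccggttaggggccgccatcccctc
FTL hairpin: ctcttgcttcaaCAGTGTttggac

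The TFRC match starts 88 bases before the start of transcription. ACGTG, searched on both strands over 250 bases, was present in 18.5% of 35116 windows, and among the members also before FTL. The E-box CACGTG (6.34% of windows) and TGACNNNGC, the letters of the antioxidant response element (10.9%), were searched in the same way and matched in 0 of the 13 windows, which do not cover FTH1 or HMOX1. The FTL loop starts at base 39 of the transcript. The hairpin was searched on the transcribed strand only, over the first 50 transcribed bases, as CAGTG with a C lying 6 bases before it and 5 base pairs between the stretches on either side of the 6-base loop, G-T pairs allowed. It was found in 8 windows of 35116 (0.0228%), and FTL was the only one of the 8 members with a window among them. Hairpins beyond the first 50 transcribed bases, or in the tail of an mRNA, could not be found this way. A member without a match, such as SLC40A1 or TFRC, is therefore not shown to lack the element. FTH1 and HMOX1 were not searched. A match is a description of the letters, not a measured site.

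Depth, recovered from the spacing of the values of short genes, was 23.9 to 29.3 M reads for the libraries of 3 to 12 h. Those of 24 to 72 h held 33.9 to 40.6 M. Of 7 epithelial markers 7 had a mean of at least 1 RPKM (reads by gene model length in kilobases and by library depth), summing to 4287 to 5050 RPKM in control and 3311 to 5534 in CAF medium. KRT8, KRT7 and KRT18 carried the sum (means 1862, 1746 and 905.6). Means in control and CAF medium were 10.33 and 15.96 for CDH1, 6.955 and 11.54 for KRT19, 7.90 and 6.25 for CLDN1. For EPCAM they were 1.32 and 2.75, with a lowest value of 0.24. Of 9 fibroblast markers only COL1A1 and FAP reached a mean of at least 1 RPKM. The fibroblast sum was 4.88 to 11.6 RPKM in control and 8.64 to 12.0 in CAF medium, with means of 2.85 and 4.21 for COL1A1 and 2.70 and 2.88 for FAP. THY1 reached 2.22 RPKM (mean 0.482 in control and 1.15 in CAF medium) and LUM 1.43 (0.772 and 0.902), while PDGFRA, DCN, COL3A1, COL1A2 and PDGFRB stayed at or below 1.0, 0.6, 0.16, 0.12 and 0.07. The part of these markers in the results was not tested. Markers of erythroid cells (4 measured), hepatocytes (3) and endothelium (3) were at or below 0.19 RPKM in every library. Of 5 leukocyte markers only CD68 had a mean of at least 1 RPKM. In bulk RNA, fewer cells of a type and less RNA per cell cannot be told apart.

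The first question was what CAF medium did to the uptake genes. TFRC, which encodes the transferrin receptor, had lower mRNA in CAF medium from 6 h onward, and this was the 1 medium effect among the 10 genes that passed the test. In control medium TFRC measured 37.6, 43.4, 37.4, 58.9, 36.4 and 19.1 RPKM at 3, 6, 12, 24, 48 and 72 h. In CAF medium it measured 38.2, 36.5, 16.96, 29.0, 4.84 and 8.62 RPKM at the same times. The media were alike at 3 h and apart at each time from 12 h, although the ranges over all times overlapped. The lowest library, CAF medium at 48 h, still held about 968 TFRC reads, against 6823 in its control.

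TFRC averaged 38.8 ± 12.8 RPKM in control and 22.4 ± 14.3 in CAF medium over the 6 times (SD, n = 6). On the scale of log2(RPKM + 0.5) it fell by 1.04 ± 0.28 (SE), to 0.49-fold, and was lower at 5 of 6 times (limma, adjusted p = 0.0435). Only 9 of the 12029 tested genes had a more negative estimate. The members were chosen with earlier results of these data known. The ranks and p-values of TFRC, here and below, are therefore no independent support. Over 24 to 72 h the fall was 1.63 ± 0.31 on the log2 scale, to 0.32-fold and lower at 3 of 3 times (limma, adjusted p = 0.0142), the fifth most negative estimate of all tested genes. Over 3 to 12 h the log2 difference was -0.45 ± 0.31 (adjusted p = 0.395). The difference between both effects, -1.19 ± 0.43, did not pass the test (limma, adjusted p = 0.326), so a larger late effect is not shown.

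**Figure D1:**
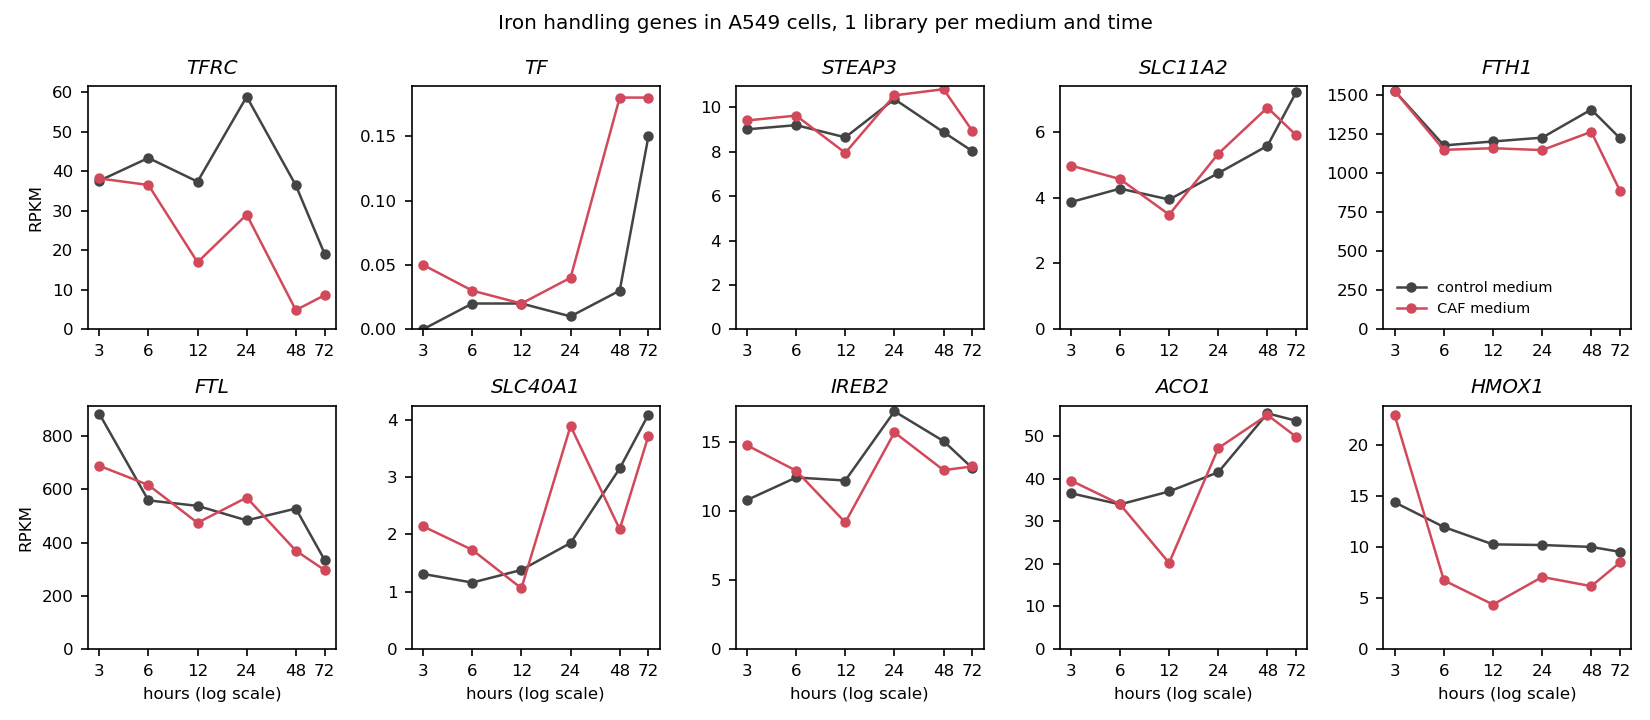
RPKM of the 10 genes (vertical axes, from 0, each on its own scale) against hours on a log axis, 1 library per point, black for control and red for CAF medium. TFRC separates from 12 h onward, from 37.4 against 16.96 RPKM at 12 h to 36.4 against 4.84 at 48 h. FTL descends in both media. ACO1 and SLC40A1 climb in control medium. In CAF medium both are lowest at 12 h, and their rise with time did not pass the test.

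Whether TFRC passed depended on which times were included. Without the 48 h pair the late change was -1.06 on the log2 scale and no longer passed (limma, adjusted p = 0.103). The change over the 6 times without that pair was -0.69 and still passed (adjusted p = 0.0456). That call over the 6 times was lost without the pair of 6, 12, 24 or 72 h (adjusted p = 0.0741, 0.115, 0.107 and 0.0685). In these 4 fits the log2 change stayed at -1.20, -1.02, -1.05 and -1.03. The genes called among all tested went from 1226 to 34, 35, 117 and 1329 in the same fits. Both calls were also lost with no filter on low values (adjusted p = 0.132 over the 6 times and 0.131 late) and with no time term (0.349 and 0.0622).

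At single times, with no replicate check, TFRC differed by -1.12, -1.01, -2.79 and -1.10 on the log2 scale at 12, 24, 48 and 72 h. A log2 difference of -1 or lower was reached by 1.33, 0.707, 3.17 and 0.757% of all tested genes at those times, and by 0.981 and 0.973% at 3 and 6 h, where TFRC did not reach it. At 48 h only 1 of the 12029 tested genes had a lower value than TFRC.

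The other uptake genes did not pass the test in any comparison of the media. STEAP3, a ferrireductase that reduces iron in the endosome, measured 9.01, 9.20, 8.65, 10.4, 8.88 and 8.03 RPKM in control medium and 9.41, 9.63, 7.95, 10.5, 10.8 and 8.94 in CAF medium. Its 12 values spanned only 1.36-fold, the narrowest span of the 10 genes, and its log2 difference was 0.07 ± 0.09 (limma, adjusted p = 0.594). SLC11A2, which encodes the divalent metal transporter DMT1, measured 3.86, 4.27, 3.94, 4.74, 5.57 and 7.20 RPKM in control and 4.97, 4.56, 3.48, 5.33, 6.73 and 5.89 in CAF medium. Its log2 difference between the media was 0.07 ± 0.10 (limma, adjusted p = 0.71), with 4 of 6 times higher.

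TF, which encodes transferrin and is made mainly by liver, was close to absent. It was listed at 0.00, 0.02, 0.02, 0.01, 0.03 and 0.15 RPKM in control medium and at 0.05, 0.03, 0.02, 0.04, 0.18 and 0.18 in CAF medium, or about 0 to 33 reads. The 0 in control medium at 3 h allows a level of up to 0.0249 RPKM (3 reads, counting error only). TF was below the mean of 1 RPKM required for testing and was the 1 member left out of the tests. Its 3 highest values were those of CAF medium at 48 and 72 h and of control medium at 72 h.

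Storage was next. FTH1, the heavy subunit of ferritin with the ferroxidase site, was the most abundant of the 10 genes, with 1524, 1176, 1201, 1226, 1406 and 1221 RPKM in control medium. In CAF medium it measured 1524, 1148, 1158, 1146, 1263 and 884.6 RPKM. The media differed by less than 0.2 on the log2 scale up to 48 h and by -0.47 at 72 h. FTL, the light subunit, measured 884.04, 558.4, 537.8, 483.2, 527.7 and 334.4 RPKM in control and 688.2, 616.1, 474.1, 569.0, 369.5 and 296.7 in CAF medium, lower in CAF medium at 4 of 6 times.

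Neither ferritin gene passed the test of the medium. The log2 difference over the 6 times was -0.13 ± 0.09 for FTH1 and -0.14 ± 0.11 for FTL (limma, adjusted p = 0.36 and 0.421). Over 24 to 72 h it was -0.24 ± 0.13 and -0.15 ± 0.16 (limma, adjusted p = 0.341 and 0.643). Both genes have processed pseudogene copies, whose reads cannot be told apart here.

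SLC40A1 encodes ferroportin, the exporter of iron, and was low. It measured 1.31, 1.16, 1.38, 1.85, 3.15 and 4.09 RPKM in control and 2.14, 1.73, 1.06, 3.89, 2.09 and 3.72 in CAF medium, or 109 to 642 reads. The media crossed: CAF medium was higher at 3, 6 and 24 h and lower at 12, 48 and 72 h. The log2 difference over the 6 times was 0.16 ± 0.18 (limma, adjusted p = 0.565).

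The genes of the iron regulatory proteins did not differ between the media beyond the spread. ACO1, cytosolic aconitase, which binds iron-responsive elements as IRP1 when it lacks its iron-sulfur cluster, measured 36.5, 33.9, 37.0, 41.5, 55.3 and 53.5 RPKM in control medium. In CAF medium it measured 39.5, 34.0, 20.2, 47.1, 54.9 and 49.8 RPKM. The 12 h pair stood apart, with a log2 difference of -0.86 against -0.10 to 0.18 at the other times. IREB2, which encodes IRP2, a protein degraded when iron is plentiful, measured 10.8, 12.4, 12.2, 17.2, 15.0 and 13.1 RPKM in control and 14.7, 12.9, 9.16, 15.7, 12.9 and 13.2 in CAF medium. Log2 differences over the 6 times were -0.11 ± 0.13 for ACO1 and -0.04 ± 0.11 for IREB2 (limma, adjusted p = 0.593 and 0.844). Without the 12 h pair both signs turned, to 0.04 and 0.03.

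HMOX1, heme oxygenase 1, which breaks heme down to biliverdin, carbon monoxide and iron, was lower in CAF medium at 5 of 6 times. It measured 14.4, 11.9, 10.2, 10.2, 10.00 and 9.52 RPKM in control and 22.9, 6.73, 4.36, 7.06, 6.16 and 8.49 in CAF medium. The 3 h pair went the other way, with the highest value of all 12 libraries in CAF medium. From 6 h, a start picked from these values, control medium was the higher at each time. Over all 6 times the ranges of the media overlapped. Over the 6 times the log2 difference was -0.43 ± 0.19 and did not pass the test (limma, adjusted p = 0.156). Without the 3 h pair it was -0.65 and passed (limma, adjusted p = 0.0221), and the early difference moved from -0.43 to -0.96 (adjusted p = 0.349 and 0.0314). Without the 12 h pair the log2 difference was -0.29 over the 6 times and -0.065 early, and neither passed (limma, adjusted p = 0.368 and 0.935). Leaving out any pair other than that of 3 h gave no pass in either fit.

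**Figure D2:**
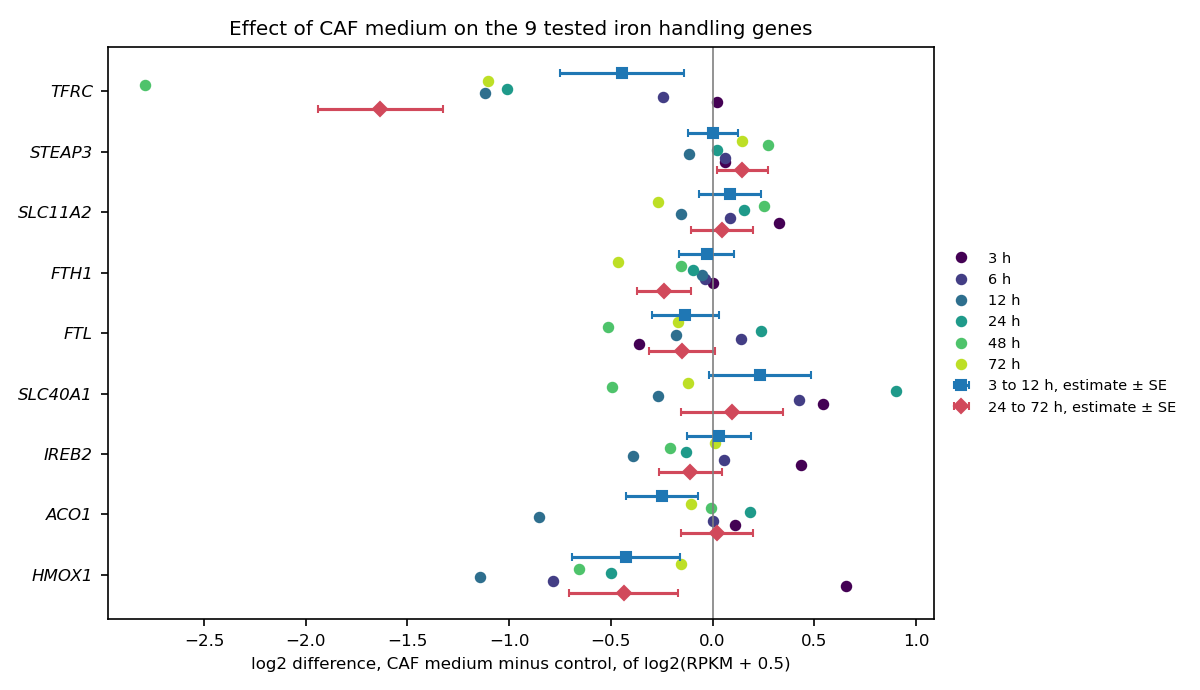
Log2 difference between CAF medium and control (horizontal axis, of log2(RPKM + 0.5)) for the 9 tested genes: small circles are single times, coloured by hour, blue squares the estimate for 3 to 12 h and red diamonds that for 24 to 72 h, with SE bars. The late TFRC estimate lies at -1.63, and HMOX1 has 5 of 6 circles below 0.

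Counted together, 1 of the 9 tested members passed over the 6 times, in the downward direction. Of all 12029 genes 10.2% passed in either direction, 6.06% upward and 4.13% downward, so the count of members is near the background. Over 24 to 72 h 1 of 9 fell, against 2.74% of all genes downward, 1.36% upward and 4.09% either way. Over 3 to 12 h 0 of 9 passed (limma, with 0 also at an unadjusted p under 0.05 and 0 with eBayes without trend), against 5.63% of all genes (3.77% up and 1.86% down). For the difference between the late and the early effect 0 of 9 passed (limma, 1 at an unadjusted p under 0.05, 0 with eBayes without trend), against 0.416% of all genes (0.0582% up and 0.357% down). The median log2 change of the 9 members was -0.11 over the 6 times, beside 0.0024 for all genes.

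At 12 h 9 of 9 tested members were lower in CAF medium, where 49.1% of all tested genes were lower. At 3 h 1 of 9 was lower (40.2% of all genes), at 6 h 3 (45.7%) and at 24 h 4 (44.9%). At 48 and 72 h 7 of 9 were lower, beside 56.0 and 59.9% of all genes, so those counts stand on a background that itself leaned lower. At 12 h TFRC and HMOX1 were the 2 members with a log2 difference of -1 or lower (-1.12 and -1.15). Each of these counts compares a single pair of libraries.

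**Figure D3:**
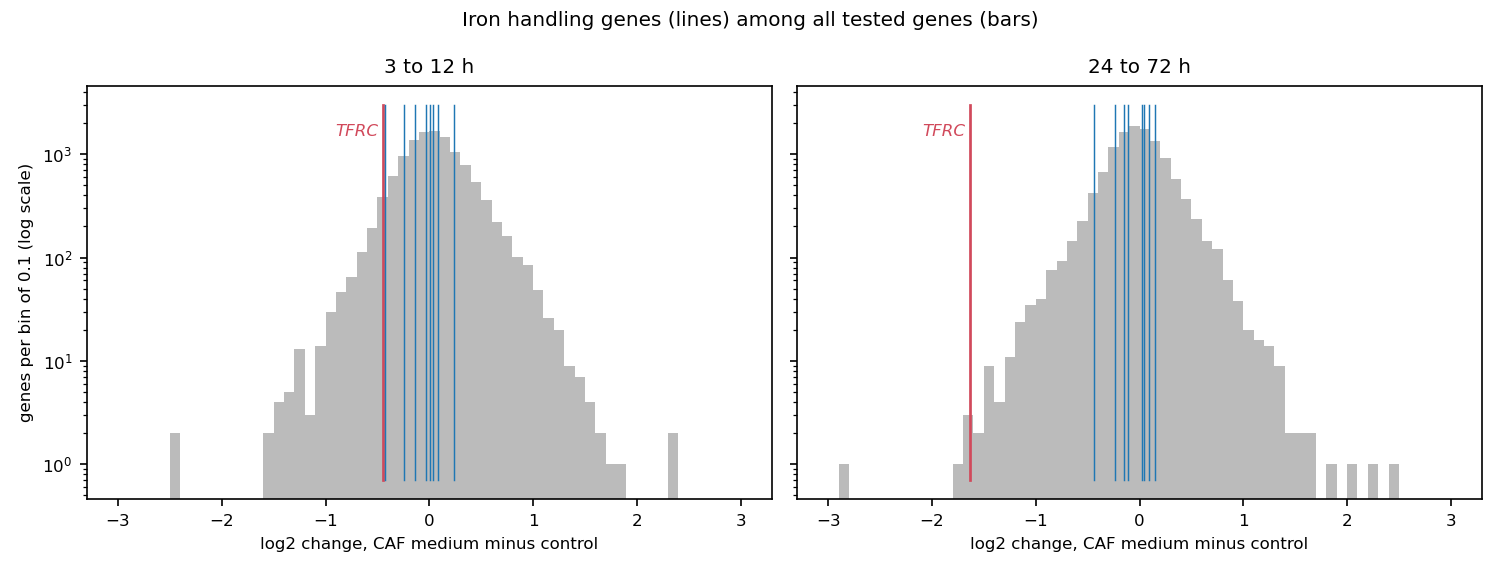
Number of genes per bin of 0.1 (vertical log axis) by log2 change, CAF medium minus control (horizontal axis), for 3 to 12 h and 24 to 72 h. Lines mark the 9 tested members, with TFRC in red. It lies at -0.45 early, rank 676 from the lowest of 12029 genes, and at -1.63 late, rank 5 from the lowest.

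Ratios within a library describe the balance of the genes and were not tested. TFRC stood at 15.6 to 48.0 per 1000 of FTH1 in control medium, with a median of 28.5, and at 3.83 to 31.8 in CAF medium, with a median of 19.8. The ratio was equal in both media at 3 h (24.7 and 25.0 per 1000) and lowest in CAF medium at 48 h. FTH1 stood at 1.72 to 3.65 times FTL in control and 1.86 to 3.42 times in CAF medium, and the media crossed repeatedly. The IREB2 to ACO1 ratio was 0.244 to 0.414 in control and 0.236 to 0.453 in CAF medium.

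**Figure D4:**
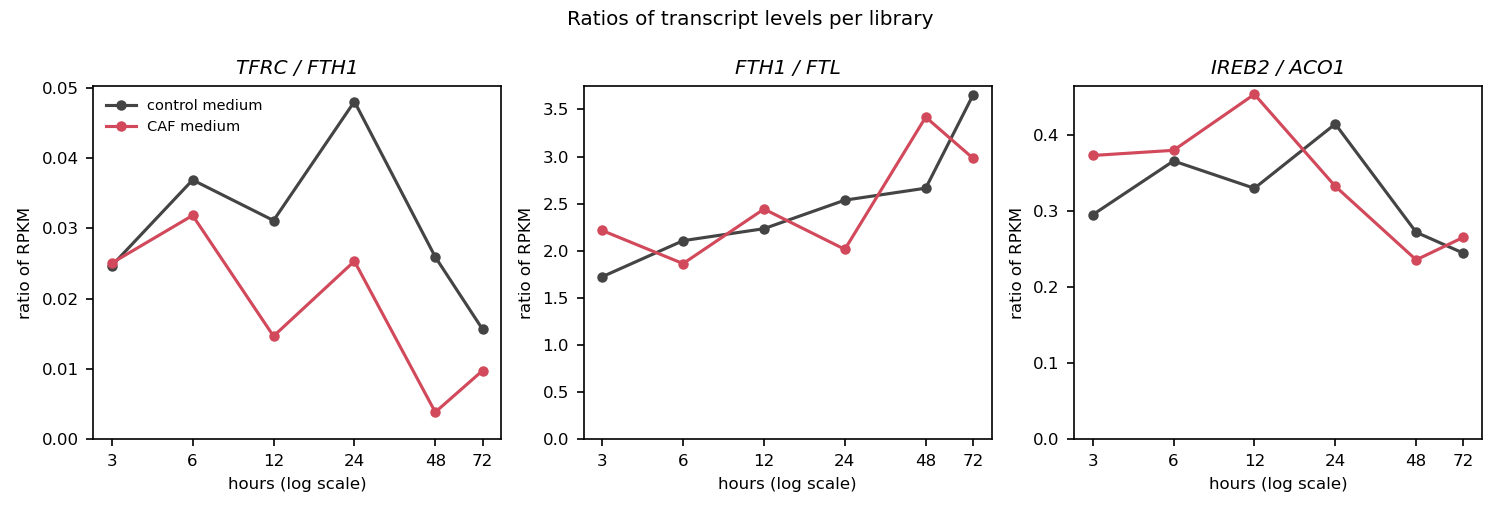
Ratios of RPKM in each library (vertical axes, from 0) against hours on a log axis, black for control and red for CAF medium. TFRC relative to FTH1 is 25.9 per 1000 in control and 3.83 per 1000 in CAF medium at 48 h, whereas the curves of the other 2 ratios cross.

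The order of the mean levels over all 12 libraries, per length, was FTH1 (1240 RPKM), FTL (528.3), ACO1 (41.9), TFRC (30.6), IREB2 (13.3), HMOX1 (10.2), STEAP3 (9.29), SLC11A2 (5.05), SLC40A1 (2.30) and TF (0.0608). The FTH1 and FTL ranges, 884.6 to 1524 and 296.7 to 884.04 RPKM, did not overlap each other or those of the other genes. The TFRC range, 4.84 to 58.9 RPKM, overlapped those of ACO1, IREB2, HMOX1, STEAP3 and SLC11A2. The HMOX1 range, 4.36 to 22.9 RPKM, also overlapped those of ACO1, IREB2, STEAP3 and SLC11A2. The ranges of IREB2 and STEAP3 overlapped, as did those of SLC11A2 and SLC40A1.

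The second question was how the genes changed with time in culture, fitted as a slope per doubling of the hours over both media, with a term for the medium. Of the 9 tested members 5 passed, 3 up and 2 down, against 34.4% of all genes (21% up and 13.3% down). FTL fell by 0.23 ± 0.04 on the log2 scale per doubling (limma, adjusted p = 0.000961), from 884.04 RPKM at 3 h to 334.4 at 72 h in control medium. The fall of FTL passed in both media alone (-0.22 in control and -0.24 in CAF medium, adjusted p = 0.025 and 0.0284) and with each time left out. SLC40A1 rose by 0.24 ± 0.07, ACO1 by 0.15 ± 0.05 and SLC11A2 by 0.13 ± 0.04 (limma, adjusted p = 0.0134, 0.0419 and 0.0196). These 3 rises passed in control medium alone (0.31, 0.15 and 0.16, adjusted p = 0.0136, 0.0307 and 0.033). In CAF medium alone they were 0.16, 0.15 and 0.10 and did not pass (adjusted p = 0.324, 0.32 and 0.347).

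TFRC fell by 0.34 ± 0.10 per doubling (limma, adjusted p = 0.0184). In CAF medium alone the slope was -0.55 (adjusted p = 0.0159) and in control medium alone -0.13 (adjusted p = 0.318), and the difference between these slopes was not tested. The slopes of FTH1, HMOX1, IREB2 and STEAP3 were -0.06, -0.16, 0.04 and 0.0005 (limma, adjusted p = 0.185, 0.109, 0.455 and 0.991). Without the 72 h pair SLC40A1 (0.17, adjusted p = 0.164), ACO1 (0.14, 0.183), SLC11A2 (0.10, 0.156) and TFRC (-0.28, 0.157) lost their calls. Without the 6 h pair the same 4 lost them (adjusted p = 0.0525, 0.114, 0.0549 and 0.0576). ACO1 and SLC11A2 also lost theirs without 48 h (adjusted p = 0.172 and 0.0789), and ACO1 without 24 h (0.063). Both libraries of a time count separately in this fit, so its p-values can be too small. The later libraries were also deeper, and the part of depth in the slopes was not tested.

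By Pearson correlation of log2(RPKM + 0.5) over the 12 libraries, the genes most like TFRC were MED22 (r = 0.99), CBX5 (0.98) and HYLS1 (0.98). Those most like FTH1 were SPECC1 (0.88), JARID2 (0.86) and ARHGEF17 (0.80). SLC40A1 was closest to ZNF514, HSD17B4 and EIF4G3 (0.98, 0.98 and 0.96), and HMOX1 to MAP7, EPM2A and ZNF664 (0.91, 0.91 and 0.90). These are the highest of 12028 correlations per member and share libraries and depth, so they describe likeness only.

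Lists of 86 further genes of iron and heme handling held 84 measured and 74 tested genes. Over the 6 times 7 of the 74 passed, 4 up and 3 down (9.46%, against 10.2% of all genes). Over 3 to 12 h 3 passed (4.05%, against 5.63%), and over 24 to 72 h 2 (2.7%, against 4.09%). The median log2 change over the 6 times was -9.66e-06, beside 0.0024 for all genes. These shares are near those of all genes, and NCOA4 and FTMT were not analysed here.

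Among 23 genes of mitochondrial iron and iron-sulfur clusters, 1 rose and 3 fell over the 6 times. That is 17.4%, against 10.2% of all genes (6.06% up and 4.13% down). BOLA3 and IBA57, which act in late cluster maturation, fell by 0.55 and 0.63 on the log2 scale (limma, adjusted p = 0.0137 and 0.0424), with means in control and CAF medium of 55.7 against 38.6 and 1.63 against 0.832 RPKM. IBA57, whose mean passed the filter on low values through control medium, fell over 3 to 12 h (log2 -1.02, adjusted p = 0.0179) and BOLA3 over 24 to 72 h (-0.63, adjusted p = 0.0275).

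Of the 12 tested uptake genes, SCARA5, a receptor reported to take up ferritin, rose by 0.84 ± 0.17 over the 6 times and by 1.01 ± 0.23 late (limma, adjusted p = 0.019 and 0.0358). Its mean was 0.572 RPKM in control and 1.44 in CAF medium, so it passed the filter on low values narrowly and through CAF medium. LCN2, lipocalin 2, which binds iron-loaded siderophores, fell by 0.69 ± 0.17 over 3 to 12 h (adjusted p = 0.0428), from 5.24 to 3.07 RPKM. Of 21 heme genes, PPOX, an enzyme late in heme synthesis, rose over the 6 times (log2 0.43 ± 0.11, adjusted p = 0.0411). FLVCR2, of a heme exporter family, rose over 3 to 12 h (0.67 ± 0.17, adjusted p = 0.0479). BOLA2, a partner of glutaredoxin in cytosolic iron transfer, was the 1 of 12 genes of ferritin turnover and iron chaperones that passed (0.54 ± 0.12, adjusted p = 0.0225). Of the 6 tested genes of export and the hepcidin axis 0 passed (limma, 1 at an unadjusted p under 0.05).

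Whether these genes passed depended on which times were included, as it did for all genes: without 6, 12 or 24 h the genes called over the 6 times went from 1226 to 34, 35 and 117. In the fit over the 6 times PPOX lost the call without 6, 12, 24 or 48 h, and IBA57 without 3, 6, 12 or 24 h. BOLA2 and BOLA3 lost it without 6, 12 or 24 h and SCARA5 without 6 or 12 h. The log2 changes stayed at 0.36 to 0.50 for PPOX, -0.74 to -0.50 for IBA57, 0.46 to 0.59 for BOLA2, -0.61 to -0.49 for BOLA3 and 0.83 to 0.95 for SCARA5. The highest adjusted p was 0.124 for PPOX, 0.131 for IBA57, 0.0844 for BOLA2, 0.056 for BOLA3 and 0.0664 for SCARA5. SCARA5 fell below the filter on low values without 24, 48 or 72 h and then had no test. Over 3 to 12 h IBA57 lost its call without 6 or 12 h, LCN2 without 3, 6 or 12 h and FLVCR2 without any time but 24 h (adjusted p up to 0.155, 0.204 and 0.241). Over 24 to 72 h BOLA3 lost its call without 24 or 48 h and SCARA5 without 6 or 12 h (adjusted p up to 0.249 and 0.0617).

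With time in culture 24 of the 74 list genes passed, 16 up and 8 down (32.4%, against 34.4% of all genes). Of the 12 uptake genes 6 rose and 0 fell (50%, against 21% of all genes up and 13.3% down). SLC39A8, a zinc and iron importer, rose by 0.42 ± 0.08 per doubling (limma, adjusted p = 0.00196), from a mean of 5.96 RPKM at 3 to 12 h to 17.2 at 24 to 72 h. The ferrireductase relatives STEAP1 and STEAP2 rose by 0.37 and 0.31, SCARA5 (0.43 RPKM early and 1.58 late, past the filter only through the late libraries) by 0.34, the lipocalin receptor SLC22A17 by 0.27 and the ferrireductase CYBRD1 by 0.13 (adjusted p = 0.00839, 0.0031, 0.000946, 0.00206 and 0.0363). CP, ceruloplasmin, the ferroxidase that works with ferroportin, rose by 0.36 ± 0.08 (adjusted p = 0.00268), from 11.2 to 24.6 RPKM. BMP6, an inducer of hepcidin in liver, rose by 0.31 ± 0.06 (adjusted p = 0.00295), while HAMP, hepcidin itself, was listed at 0 in 11 of 12 libraries.

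Of the 23 mitochondrial genes 4 rose and 7 fell with time (47.8%, against 34.4% of all genes, 21% up and 13.3% down). The lists were not tested as sets. BOLA3, FDX1L, GLRX5 and CISD3, carriers or assembly factors of clusters, fell by 0.29, 0.19, 0.18 and 0.15 per doubling (limma, adjusted p = 0.000232, 0.00118, 0.00315 and 0.00392). SLC25A37, mitoferrin 1, the mitochondrial iron importer, rose by 0.19 ± 0.05 (adjusted p = 0.00881). BACH1, a repressor of HMOX1 that heme inactivates, rose by 0.16 ± 0.05 (adjusted p = 0.0164), as did SLC46A1 and PPOX by 0.13 and 0.11 (0.0474 and 0.0373). In the chaperone list BOLA2 rose by 0.17 and NUBP1 fell by 0.11 (0.00473 and 0.0131). Without the 72 h pair STEAP1, STEAP2, CYBRD1, CP, GLRX5, BACH1, SLC46A1, PPOX, BOLA2 and NUBP1 lost their calls. CYBRD1, SLC46A1 and PPOX also lost theirs without 6, 24 or 48 h, BACH1 without 6 or 48 h and NUBP1 without 3 or 48 h. The highest limma adjusted p of these 10 genes over all times left out was 0.174, 0.0797, 0.166, 0.0693, 0.0651, 0.0737, 0.184, 0.171, 0.076 and 0.0903, in the order named first. BOLA3, FDX1L, CISD3, SLC39A8, BMP6, SLC22A17 and SLC25A37 passed whichever of the 6 times was left out, and SCARA5 in the 3 such fits that tested it. Among these genes CISD3, FDX1L, SLC25A37 and BMP6 did not pass in CAF medium alone (limma, adjusted p = 0.131, 0.125, 0.113 and 0.0833). Nor did SCARA5 in control medium alone (0.0513). Over all alternatives the highest limma adjusted p was larger still for several of the 10 genes that lost their calls without 72 h. It was 0.5 for CYBRD1, 0.33 for NUBP1, 0.276 for PPOX, 0.264 for SLC46A1, 0.221 for STEAP1, 0.124 for BACH1 and 0.111 for BOLA2.

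**Figure D5:**
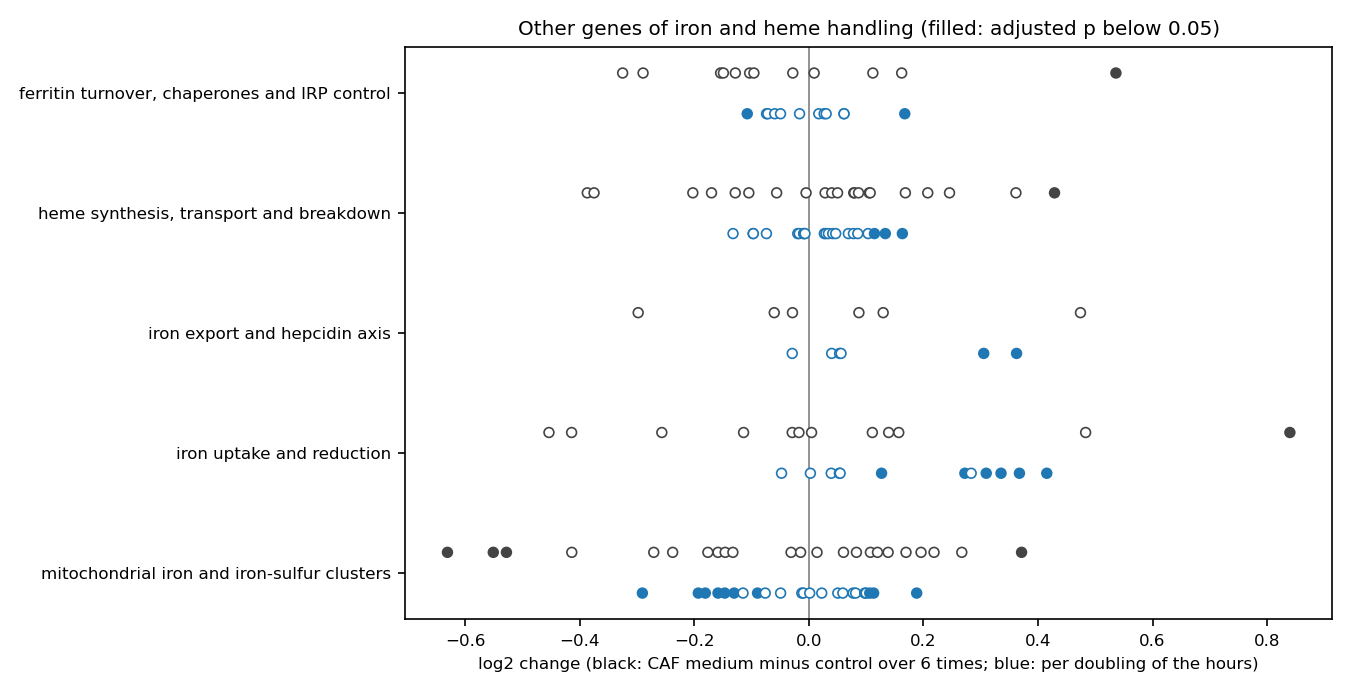
Log2 change (horizontal axis) of the 74 tested genes of the 5 lists, black for CAF medium minus control over the 6 times and blue for the slope per doubling of the hours, filled where the adjusted p is below 0.05. Of the black points 7 are filled, and of the blue points 24, of which 6 are uptake genes to the right of 0.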

How the data were processed

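The values are RPKM, deposited by the authors to 2 decimals with gene model lengths. TopHat2, edgeR and the hg19 build are named, per the submitters' processing notes. For versions, counting, strand, annotation and the joining of replicates, nothing is given in the sources used here. Columns were matched to samples by the code in each description, and 0 value columns lacked a sample. The small RNA libraries were not used here. Depth was found from gene models under 400 bases, where 100% of the values checked were whole reads within 0.1.

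Using R 4.3.3 and limma 3.58.1 (two-sided moderated tests, mean-variance trend), log2(RPKM + 0.5) of genes averaging 1 RPKM or more was fitted with time as a factor for the medium effect over 6 times. Early and late effects were fitted together, and slopes against log2 hours together with the medium. Adding 0.5 understates changes of low genes. The Benjamini-Hochberg adjustment ran over all tested genes, with a threshold of 0.05. The fits were tested on simulated data with independent noise in each library. For the slope these held no scatter shared by both libraries of a time, so they could not show p-values that are too small for that reason. Figures were drawn with matplotlib 3.10.9. List genes are named where they passed, at most 6 per list and comparison, and some that passed are counted but not reported here. The members and lists were chosen with earlier results of these data known. Alternatives were pseudocounts of 0.1 and 1, a filter of 5 RPKM or none, median centring, quantile normalization, no trend, no time term, single media, and leaving out each time. Pairing is by the labelled time, which is the block of the medium fits.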

Additional observations from a re-analysis of the deposited data

Results flagged for a closer look

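Each of 30 sets of 6 values (both media and the log2 differences, for the 10 genes) was checked for a value far from the others, and 4 were found. Chance flags about 1 in 20 such sets. ACO1 had a log2 difference of -0.86 at 12 h, where the other times lay between -0.10 and 0.18. HMOX1 measured 22.9 RPKM in CAF medium at 3 h, against 4.36 to 8.49 at the other times. FTH1 had a log2 difference of -0.47 at 72 h, against -0.15 to 0.00044 at the other times. TF measured 0.15 RPKM in control medium at 72 h, against 0 to 0.03 at the other times, which is about 27 reads. No member passed the test of a difference between the late and the early effect (limma, 0 of 9, with TFRC the 1 at an unadjusted p under 0.05, 0.0186).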

How the results depend on the processing

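The TFRC log2 change was negative in all 14 alternatives, at -1.25 to -0.69 over the 6 times (adjusted p = 0.026 to 0.349) and -1.95 to -1.06 late (0.00774 to 0.131). With no filter on low values, or with no replicate block (no time term), 0 members passed over the 6 times and 0 late. Leaving out each time pair, 0 to 2 passed over the 6 times, 0 to 1 early, 0 to 1 late, and 1 to 5 with time. In CAF medium alone 2 passed with time. With no time term late all-gene calls went from 492 to 1, over the 6 times from 1226 to 0 (limma, 1691 unadjusted). With no filter they went to 36 and 0 (4744 unadjusted). With no filter TF also passed with time and ACO1 did not (adjusted p = 0.0781), nor did ACO1 with median centring (0.0535). A mean of at least 5 RPKM left SLC40A1 untested. Causes were not tested.

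Signs turned only in values that had missed the test. Median centring gave early STEAP3 -0.040 and IREB2 -0.011, late minus early SLC11A2 0.019, FTL 0.041 and HMOX1 0.046, and a STEAP3 slope of -0.022. Quantile normalization gave early STEAP3 -0.024, late minus early SLC11A2 0.033, FTL 0.044 and HMOX1 0.014, and a STEAP3 slope of -0.017. With no replicate block early STEAP3, SLC11A2, FTL, SLC40A1 and IREB2 were -0.0048, -0.15, 0.14, -0.23 and -0.14, late IREB2 0.060, and late minus early SLC11A2, SLC40A1 and IREB2 0.43, 0.80 and 0.20. The slope of STEAP3 in control medium alone was -0.018 and that of IREB2 in CAF medium alone -0.0010.

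Leaving out each time, ranges that crossed 0 over the 6 times were -0.13 to 0.032 (IREB2) and -0.17 to 0.036 (ACO1). Early they were -0.028 to 0.061 (STEAP3), -0.036 to 0.21 (SLC11A2), -0.17 to 0.24 (IREB2) and -0.43 to 0.056 (ACO1). Late they were -0.058 to 0.20 (SLC11A2), -0.31 to 0.39 (SLC40A1), -0.057 to 0.086 (ACO1) and -0.34 to 0.031 (FTL). Late minus early they were -0.16 to 0.12 (SLC11A2), -0.54 to 0.16 (SLC40A1), -0.35 to 0.061 (IREB2), -0.37 to 0.53 (HMOX1), -0.21 to 0.17 (FTL) and -0.034 to 0.45 (ACO1). Slopes were -0.011 to 0.032 (STEAP3) and -0.24 to 0.019 (HMOX1).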

Other observations

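Over the 12 libraries ACO1, SLC11A2 and SLC40A1 varied together, with Pearson r of 0.87 (ACO1 and SLC11A2), 0.79 (ACO1 and SLC40A1) and 0.83 (SLC11A2 and SLC40A1) on the log2 scale. FTL ran against them, at -0.38, -0.65 and -0.51, and with TFRC and FTH1, at 0.70 and 0.68. The libraries share the time course and their depth, so these values are a description across libraries and carry no test.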
